A study of Homo sapiens with 9 samples.

Results

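FGFR1, FGFR2, FGFR3 and FGFR4, the co-receptor gene KLB and the endocrine ligand genes FGF19 and FGF21 were followed in Huh-7 cells, a human hepatocellular carcinoma line. These 7 genes were taken by name and matched by Ensembl identifier to 7 of the 60664 genes in the read count table. The cells were grown in complete medium and were either WT, vtRNA1-1 knockout (1-1 KO) or vtRNA1-2 knockout (1-2 KO), with 3 libraries per line and no further treatment. WT and 1-1 KO cells came from another laboratory and the 1-2 KO cells were a single clone made by CRISPR/Cas9 from these WT cells, so that each knockout was 1 line and loss of the vtRNA cannot be told apart from other properties of that line. The comparisons asked how the mRNAs of each knockout differ from WT and from each other.

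FGF receptors are tyrosine kinases of the cell surface that signal through the adaptor FRS2 to the MAPK/ERK cascade. Most FGFs act near the cell that secretes them and bind heparan sulfate, whereas the endocrine FGFs bind it weakly, circulate, and need a Klotho protein beside the receptor. In the liver, FGFR4 together with KLB (beta-Klotho) is the receptor for FGF19, an intestinal hormone that represses bile acid synthesis and that some hepatocellular carcinomas make themselves. FGF21 is a fasting and stress hormone of hepatocytes that acts with KLB mainly through FGFR1.

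Total counts were between 32384469 and 41782387 per library. Levels are given as CPM, the read count scaled to a common library size after TMM adjustment, and their SD is over the 3 libraries of a line. Levels of different genes were compared as CPM per kilobase of exon. Tests were edgeR's quasi-likelihood test on the counts of 17207 genes, adjusted by the Benjamini-Hochberg method, and a gene was called with an adjusted p under 0.05. Replicate 1 of 1-2 KO stood apart from the other libraries of its line, with count differences of 15.1 and 16.1 times the Poisson variance to them, against 2.67 times between the others, and results are given without it where they rest on it. The study calls the libraries of a line biological replicates, and the labels do not say whether they came from separate cultures, so that the p-values measure the spread between these libraries. These mRNA libraries did not report on the deleted genes, since VTRNA1-1 had at most 1 count and VTRNA1-2 had 0 counts in every library. The hepatocyte markers ALB, AFP, APOA1, APOB, TTR, SERPINA1, FGB, TF and HNF4A were all detected in each line, with a summed level between 15010.2 and 15956 CPM in WT, 31192 and 32134 CPM in 1-1 KO, and 21201 and 23228 CPM in 1-2 KO. ALB and AFP carried the rise of the sum from WT to 1-2 KO. AFP was between 1710.0 and 1837 CPM in WT and between 7037 and 7649 CPM in 1-2 KO. APOB was also a large part of the sum. It overlapped between these lines, at 5217 to 5762 CPM in WT and 4847 to 5402 CPM in 1-2 KO. TTR, FGB and TF lay below WT in 1-2 KO, with TTR at 109 to 114 CPM in WT and 69.1 to 74.7 CPM in 1-2 KO. The 6 fibroblast markers, of which 5 or 6 were above 3 counts, summed to between 189 and 200.5 CPM in WT, 299.8 and 314 CPM in 1-1 KO, and 119 and 127 CPM in 1-2 KO. LUM carried this sum, at 151 to 162 CPM in WT and 59.8 to 64.3 CPM in 1-2 KO. PDGFRA also lay below WT in 1-2 KO, whereas COL1A1, COL1A2 and PDGFRB lay above it. COL1A2 was at 19.2 to 19.7 CPM in WT and 35.3 to 41.3 CPM in 1-2 KO. The 5 endothelial markers, of which 2 were above 3 counts in each line and KDR was at 0 in every library, summed to between 7.42 and 8.04 CPM in WT, 6.43 and 7.22 CPM in 1-1 KO, and 0.831 and 1.105 CPM in 1-2 KO. The 4 leukocyte markers, of which 2 or 3 were above 3 counts, summed to at most 1.63 CPM in WT, 3.62 CPM in 1-1 KO and 3.18 CPM in 1-2 KO. The 4 cholangiocyte markers, of which 3 or 4 were above 3 counts, summed to between 276 and 320.2 CPM in WT, 379 and 391 CPM in 1-1 KO, and 289 and 396 CPM in 1-2 KO. KRT19 carried this sum, while SOX9 and KRT7 lay below WT in 1-2 KO, with SOX9 at 76.0 to 85.0 CPM in WT and 53.3 to 59.5 CPM in 1-2 KO. The part of these marker shifts in the results was not tested.

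Of the 7 genes, 5 had at least 10 counts in every library, FGFR2 passed the filter on low counts only through 1-2 KO, and FGF21 did not pass it. FGFR1 and KLB were higher in both knockouts, FGFR4 was lower in 1-1 KO and higher in 1-2 KO, FGF19 and FGFR3 were called in 1-2 KO alone among the comparisons with WT, and FGFR2 appeared in 1-2 KO. In 1-1 KO compared to WT, FGFR1 and KLB were called higher, FGFR4 was called lower, and FGFR3 and FGF19 were not called, where 63.4% of all tested genes were called, 32.5% higher and 30.9% lower. In 1-2 KO compared to WT, FGFR1, FGFR3, FGFR4, KLB and FGF19 were called higher, where 54.4% of tested genes were called, 28.2% higher and 26.2% lower. Between the knockouts, FGFR1, FGFR3, FGFR4 and FGF19 were called higher in 1-2 KO and KLB was called lower, where 65.3% of tested genes were called, 33.1% higher and 32.2% lower. Changes over 1 on the log2 scale were made by 13.4% of tested genes in 1-1 KO and 11.7% in 1-2 KO compared to WT and by 14.1% between the knockouts, and these 5 genes stayed below that size. Of all tested genes, 35.2% were higher and 33.7% lower in 1-1 KO than in WT with no overlap of the libraries. These shares of all tested genes were 29.8% and 28.7% for 1-2 KO compared to WT, and 35.3% and 34.5% between the knockouts. The comparisons with WT share the same 3 WT libraries.

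FGFR4, the receptor that pairs with KLB in hepatocytes, was the most abundant FGF receptor mRNA in each line. FGFR4 (ENSG00000160867, GRCh38 chromosome 5, 177086905 to 177098144, plus strand) was at 279, 275 and 343 CPM in the WT libraries, at 221, 223 and 208 CPM in 1-1 KO and at 440.4, 399 and 414 CPM in 1-2 KO. The 3 lines did not overlap, with 1-1 KO lowest and 1-2 KO highest, and WT replicate 3 lay above the other WT libraries. Compared to WT at 299 ± 38.2 CPM (SD, n = 3 libraries), FGFR4 showed a 1.38-fold decrease in 1-1 KO (log2 fold change -0.46, SE 0.07, adjusted p = 5.02e-05 in edgeR). In 1-2 KO it showed a 1.40-fold increase (log2 fold change 0.48, SE 0.07, adjusted p = 4.17e-05 in edgeR), and 0.44 remained without replicate 1 of that line (adjusted p = 7.52e-05). Without WT replicate 3 the log2 fold changes were -0.35 in 1-1 KO (adjusted p = 3.42e-05) and 0.57 in 1-2 KO (adjusted p = 5.04e-07), in edgeR. The difference between the knockouts was 1.92-fold (log2 fold change 0.94, SE 0.07, adjusted p = 3.08e-08 in edgeR).

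Genes beside FGFR4 on chromosome 5 differed between the lines in the same directions. Within 1 Mb of its start, 34 other genes were tested, of which 17 were lower and 3 higher in 1-1 KO, and 21 were higher and 2 lower in 1-2 KO, compared to WT. Between 1-2 KO and 1-1 KO 27 of the 34 were higher in 1-2 KO, and the lowest log2 fold change among the 34 was 0.06. Of all tested genes 30.9% were lower and 32.5% higher in 1-1 KO, and 28.2% were higher and 26.2% lower in 1-2 KO. Between the knockouts 33.1% of all tested genes were higher in 1-2 KO and 32.2% lower. The median log2 fold change of the 50 nearest tested genes was -0.20 in 1-1 KO, 0.21 in 1-2 KO and 0.53 between the knockouts. After this median was subtracted, FGFR4 kept a log2 fold change of -0.26 in 1-1 KO (adjusted p = 5.87e-03), 0.27 in 1-2 KO (adjusted p = 4.95e-03) and 0.41 between the knockouts (adjusted p = 1.68e-04), all from the edgeR fit with the SE of FGFR4 itself. These p-values, like all others after such a subtraction, take the median as a fixed value and leave out the spread of the neighbours. Within 1 Mb the neighbours ran from -2.03 to 2.44 in 1-1 KO and from -0.50 to 4.28 in 1-2 KO, compared to WT.

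**Figure D1:**
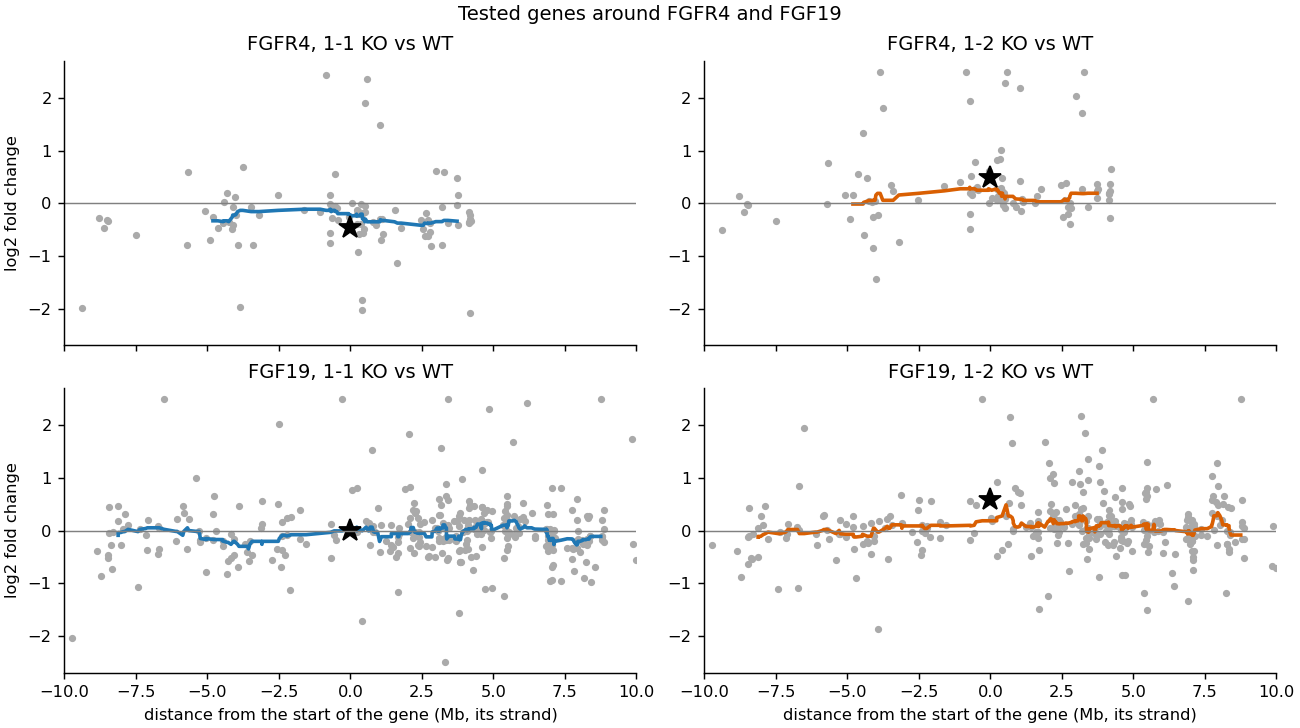
Log2 fold change (vertical axes) of the tested genes within 10 Mb of the start of FGFR4 (top) and FGF19 (bottom) in 1-1 KO (left) and 1-2 KO (right) compared to WT, against distance in Mb along the strand of the gene. Grey points are single genes, drawn at 2.5 or -2.5 where they lie beyond, coloured lines are running medians of 21 genes and stars are the named gene. The star of FGFR4 lies below 0 in 1-1 KO and above 0 in 1-2 KO, on the same side as its neighbours.

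FGFR3, a receptor best known for limiting bone growth, was the second most abundant receptor mRNA. FGFR3 (ENSG00000068078, chromosome 4, 1793293 to 1808872, plus strand) was at 185, 184 and 211 CPM in WT, at 204, 196 and 201 CPM in 1-1 KO and at 239, 222 and 215 CPM in 1-2 KO. The 1-1 KO libraries lay within the range of WT, and the 1-2 KO libraries lay above both, with replicate 1 highest. FGFR3 rose 1.17-fold in 1-2 KO compared to WT (log2 fold change 0.22, SE 0.05, adjusted p = 2.53e-03 in edgeR) and was above 1-1 KO by 0.17 on the log2 scale (adjusted p = 0.0113 in edgeR). Without replicate 1 of 1-2 KO these log2 values were 0.18 (adjusted p = 7.12e-03) and 0.13 (adjusted p = 0.0375), in edgeR. In 1-1 KO compared to WT the log2 fold change was 0.05 (adjusted p = 0.397 in edgeR), with an approximate 95% interval from -0.05 to 0.16. It became 0.12 without WT replicate 3 (adjusted p = 0.0391 in edgeR), and 0.30 once the median of the 50 neighbouring genes, which was -0.25, was subtracted (adjusted p = 2.24e-04 in edgeR). In 1-2 KO the neighbours of FGFR3 had a median of -0.32, so that FGFR3 rose among genes that were lower.

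FGFR1, the main receptor for FGF21 and widely expressed outside the liver, was far less abundant than FGFR3 and FGFR4. FGFR1 (ENSG00000077782, chromosome 8, 38400215 to 38468834, minus strand) was at 40.4, 37.4 and 40.7 CPM in WT, at 51.7, 54.4 and 51.6 CPM in 1-1 KO and at 60.8, 61.2 and 63.6 CPM in 1-2 KO. The lines formed separate groups in the order WT, 1-1 KO, 1-2 KO. FGFR1 rose 1.33-fold in 1-1 KO (log2 fold change 0.41, SE 0.04, adjusted p = 1.60e-06 in edgeR), and the increase in 1-2 KO was 1.57-fold (log2 fold change 0.65, SE 0.04, adjusted p = 1.98e-08 in edgeR), and 1-2 KO was 1.18-fold above 1-1 KO (adjusted p = 2.53e-04 in edgeR). The neighbours of FGFR1 had medians of 0.13 and 0.07 in the knockouts, below the change of FGFR1 itself. An exon of LETM2 on the opposite strand overlaps FGFR1, and LETM2 had between 54 and 85 counts, against at least 1283 for FGFR1.

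FGFR2, a receptor of epithelia whose splice forms bind different paracrine FGFs, was above 4 counts in the 1-2 KO libraries alone. FGFR2 (ENSG00000066468, chromosome 10, 121478332 to 121598458, minus strand) had 0 counts in each WT library, 0, 0 and 4 counts in 1-1 KO and 486, 452 and 483 counts in 1-2 KO. The WT libraries allow at most 3 counts each, which corresponds to between 0.0754 and 0.0951 CPM and covers counting error only. In 1-2 KO the level was 11.6 ± 0.364 CPM (SD, n = 3 libraries), at least 122-fold higher than in WT. No test is given for this difference, since FGFR2 passed the filter through 1-2 KO alone. Against the 4 counts of 1-1 KO the ratio of summed counts, scaled by library size, was 362, with an exact 95% interval from 141 to 1329 that covers counting error only. In bulk RNA, few cells with much FGFR2 mRNA and many cells with little cannot be told apart. FGFR1, FGFR3 and FGFR4, which resemble FGFR2 in sequence, had at least 1283, 6652 and 10322 counts in the same WT libraries in which FGFR2 had 0. Whether reads of these genes were assigned to FGFR2 in 1-2 KO was not tested.

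Most genes around FGFR2 did not rise with it. Within 1 Mb of its start 8 other genes were tested, of which 6 were lower and 1 higher in 1-2 KO compared to WT, with a median log2 fold change of -0.26 and a highest value of 3.16. In 1-1 KO, where FGFR2 stayed near 0, 7 of these 8 were lower and 1 higher, with a median of -0.31 and a highest value of 3.83. Of all tested genes 26.2% were lower and 28.2% higher in 1-2 KO, and 30.9% were lower and 32.5% higher in 1-1 KO.

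The promoter of FGFR2 is shown because the gene had 0 counts in WT and at least 452 in each 1-2 KO library, next to those of FGFR4 and KLB, which were expressed in every line. Each sequence is the 250 bases before a transcription start in RefSeq (GRCh38.p14), 5′ to 3′ on the strand of the gene, with CpG dinucleotides in capitals.
FGFR2 (chr10:121598445-121598694, minus strand): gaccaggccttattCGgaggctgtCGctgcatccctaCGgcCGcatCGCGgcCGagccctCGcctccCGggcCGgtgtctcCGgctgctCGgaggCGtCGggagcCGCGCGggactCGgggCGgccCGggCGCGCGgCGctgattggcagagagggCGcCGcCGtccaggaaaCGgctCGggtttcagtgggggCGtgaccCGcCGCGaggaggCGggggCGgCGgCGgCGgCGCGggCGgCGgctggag
FGFR4 (chr5:177086665-177086914, plus strand): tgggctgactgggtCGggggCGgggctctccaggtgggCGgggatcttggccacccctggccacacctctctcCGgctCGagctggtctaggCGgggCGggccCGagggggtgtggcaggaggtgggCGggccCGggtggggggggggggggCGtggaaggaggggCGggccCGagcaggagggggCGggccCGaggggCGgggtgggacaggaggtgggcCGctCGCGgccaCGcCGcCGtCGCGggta
KLB (chr4:39406680-39406929, plus strand): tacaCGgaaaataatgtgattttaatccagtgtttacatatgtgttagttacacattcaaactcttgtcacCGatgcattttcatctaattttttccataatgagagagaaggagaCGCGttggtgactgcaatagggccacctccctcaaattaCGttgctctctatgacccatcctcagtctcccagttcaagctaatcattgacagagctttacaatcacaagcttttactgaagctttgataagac
The FGFR2 window held 42 CpG, more than 98.6% of the windows of this length before 35116 RefSeq starts, whose median was 11. FGFR3, which was expressed in every line, had 40 CpG in its window, more than 97.8% of windows. FGFR4 had 24 CpG and KLB 5, and the GC content was 78.4% for FGFR2, 79.6% for FGFR4 and 39.2% for KLB. The GC box GGGCGG, searched on both strands and overlapping the CpG, occurred 3 times in FGFR2 and 7 times in FGFR4 and was not in the KLB window, and 42.6% of all windows held it. Core sequences for the hepatocyte factors HNF1 (GTTAAT) and HNF4 (CAAAGT), searched on both strands, were in none of the 3 windows and in 6.23% and 10.3% of all windows. RefSeq lists 4 further starts for FGFR2, with between 3 and 7 CpG in the bases before them, and 1 for FGFR4, with 2 CpG, and the counts per gene do not show which start was used.

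KLB, the co-receptor without which FGF19 and FGF21 signal poorly, was higher in both knockouts and highest in 1-1 KO. KLB (ENSG00000134962, chromosome 4, 39406930 to 39451533, plus strand) was at 114, 120.2 and 119 CPM in WT, at 155, 152 and 149.6 CPM in 1-1 KO and at 130.1, 135 and 135 CPM in 1-2 KO. The 3 lines did not overlap. KLB rose 1.29-fold in 1-1 KO (log2 fold change 0.37, SE 0.03, adjusted p = 4.36e-07 in edgeR), and the increase in 1-2 KO was 1.13-fold (log2 fold change 0.18, SE 0.04, adjusted p = 5.37e-04 in edgeR). It was 1.14-fold lower in 1-2 KO than in 1-1 KO (adjusted p = 2.42e-04 in edgeR). The 50 neighbouring genes had a median log2 fold change of 0.15 in 1-1 KO and -0.07 in 1-2 KO, and after subtraction the changes of KLB were 0.22 and 0.25.

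FGF19, the ligand of FGFR4 with KLB, was expressed in all 9 libraries and was higher in 1-2 KO. FGF19 (ENSG00000162344, chromosome 11, 69698238 to 69704022, minus strand) was at 60.8, 61.1 and 61.9 CPM in WT, at 62.3, 61.4 and 59.3 CPM in 1-1 KO and at 102, 87.0 and 84.9 CPM in 1-2 KO. WT and 1-1 KO overlapped, and each 1-2 KO library lay above them, with replicate 1 apart from the other libraries of its line. The rise in 1-2 KO was 1.49-fold compared to WT (log2 fold change 0.58, SE 0.06, adjusted p = 1.06e-06 in edgeR), and without replicate 1 of 1-2 KO the log2 fold change was 0.49 (adjusted p = 4.98e-08 in edgeR). In 1-1 KO the log2 fold change was -0.0066 (adjusted p = 0.929 in edgeR), with an approximate 95% interval from -0.12 to 0.11. FGF19 was also higher in 1-2 KO than in 1-1 KO (log2 fold change 0.58, adjusted p = 5.58e-07 in edgeR), where its 50 neighbours had a median of 0.32, and 0.26 remained after subtraction (adjusted p = 1.11e-03 in edgeR).

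FGF21, the hormone induced through PPARA and ATF4, was close to absent from these cells. FGF21 (ENSG00000105550, chromosome 19, 48755524 to 48758333, plus strand) had 0, 1 and 0 counts in WT, 2, 0 and 1 counts in 1-1 KO and 2, 2 and 6 counts in 1-2 KO. At most 0.15 CPM was reached, in 1-2 KO replicate 3. Tested without the filter on low counts, 1-2 KO compared to WT had an adjusted p of 0.100 in edgeR and 1-1 KO compared to WT one of 0.641, so that no difference was detectable at this depth.

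**Figure D2:**
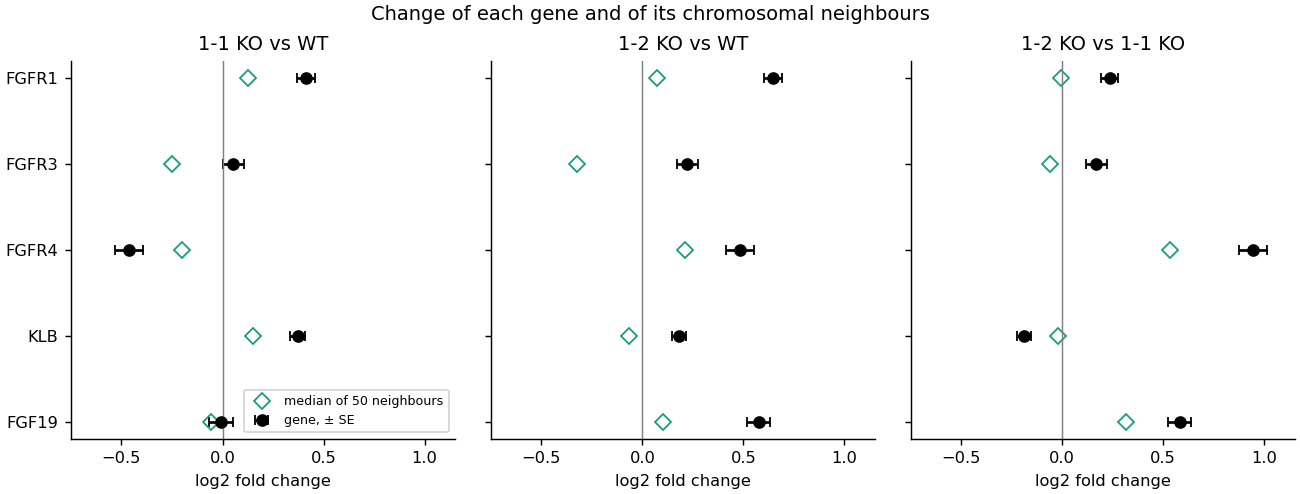
Log2 fold change of the 5 genes with at least 10 counts in every library (black points, bars show the SE) and median log2 fold change of their 50 nearest tested genes (green diamonds), for 1-1 KO and 1-2 KO compared to WT and for 1-2 KO compared to 1-1 KO. FGFR4 lies at -0.46, 0.48 and 0.94, with its neighbours at -0.20, 0.21 and 0.53, and FGFR3 lies above neighbours that are below 0.

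Set beside each other per kilobase of exon, the WT levels were ordered FGFR4, FGFR3, FGF19, KLB, FGFR1, with 62.2 ± 7.94, 39.9 ± 3.16, 33.6 ± 0.308, 19.6 ± 0.582 and 2.30 ± 0.104 CPM per kilobase (SD, n = 3 libraries). No neighbours in this order overlapped between WT libraries. FGFR4 was above 95.3% of the tested protein-coding genes in WT on this scale and FGFR1 above 39.2%. In 1-1 KO the order was the same, but FGFR4 at 45.2 ± 1.73 and FGFR3 at 41.3 ± 0.811 CPM per kilobase (SD, n = 3 libraries) lay close together. In 1-2 KO, FGF19 at 50.1 ± 5.11 and FGFR3 at 46.5 ± 2.52 CPM per kilobase (SD, n = 3 libraries) overlapped, behind FGFR4 at 86.8 ± 4.37. FGFR2 reached 0.619 ± 0.0193 CPM per kilobase in 1-2 KO (SD, n = 3 libraries), below FGFR1 at 3.60 ± 0.0873.

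The make-up of the receptor mRNAs differed between the lines. FGFR4 held 59.5% ± 1.17 of the summed receptor level per kilobase in WT, 50.4% ± 1.12 in 1-1 KO and 63.1% ± 0.691 in 1-2 KO (SD, n = 3 libraries). FGFR3 held 38.3% ± 1.01, 46.2% ± 1.16 and 33.8% ± 0.753 (SD, n = 3 libraries), so that the lines did not overlap in either share. FGFR1 held between 2.02% and 3.52% of a library, and FGFR2 held 0.451% ± 0.0263 in 1-2 KO (SD, n = 3 libraries). With the longest transcript in place of all exons, FGFR4 took 65.3%, 56.1% and 67.9%, in the same order of lines, whereas FGFR1 took 4.32%, 6.75% and 5.01% and FGFR2 took 0.842% in 1-2 KO. The summed receptor level was 104.4 ± 11.2 CPM per kilobase in WT, 89.6 ± 1.76 in 1-1 KO and 138 ± 6.53 in 1-2 KO (SD, n = 3 libraries). The ratio of KLB to FGFR4 per kilobase was 0.318 ± 0.0363 in WT, 0.562 ± 0.0146 in 1-1 KO and 0.257 ± 0.0180 in 1-2 KO (SD, n = 3 libraries), and none of the lines overlapped.

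Over 7 lists of genes around FGF signalling, between 50% and 77.8% of the tested genes of a list were called in 1-1 KO, beside 63.4% of all tested genes, and between 33.3% and 76.9% in 1-2 KO, beside 54.4%. Of the other FGF genes few were expressed. Of 19 paracrine and intracellular FGF genes, 6 were tested, of which 2 were higher and 1 lower in 1-1 KO, and 2 were higher in 1-2 KO, than in WT. FGF2, a paracrine growth factor, was at 3.15 ± 0.321 CPM in WT, 6.20 ± 0.482 CPM in 1-1 KO and 3.39 ± 0.112 CPM in 1-2 KO (SD, n = 3 libraries), and its log2 fold change of 0.98 in 1-1 KO (adjusted p = 1.57e-06 in edgeR) was 0.64 after subtraction of the median of its 50 neighbours. A further list held FGF23, KL, LCTL, GLB1L and FGFRL1. Of these 5 genes 4 were tested, 3 were called lower in 1-1 KO, and 1 was called higher and 2 lower in 1-2 KO. GLB1L, a beta-galactosidase-like gene and not an endocrine FGF or co-receptor, gave 1 of the lower calls in each knockout (adjusted p = 0.0412 in 1-1 KO and 0.0379 in 1-2 KO, in edgeR). It is named here only to show what the list held. FGF23, the phosphate hormone, had at most 2 counts in a library. KL, its co-receptor alpha-Klotho, was at 2.52 ± 0.0700 CPM in WT, 2.43 ± 0.265 CPM in 1-1 KO and 3.41 ± 0.462 CPM in 1-2 KO (SD, n = 3 libraries). The call of KL in 1-2 KO (adjusted p = 0.0108 in edgeR) was lost with DESeq2 (adjusted p = 0.0540), without replicate 2 of 1-2 KO (adjusted p = 0.0569 in edgeR) and after subtraction of the median of its neighbours (adjusted p = 0.0648). LCTL, a Klotho relative, was at 7.43 ± 0.0768 CPM in WT (SD, n = 3 libraries) and fell 5.15-fold in 1-1 KO (adjusted p = 5.86e-09 in edgeR), and the decrease in 1-2 KO was 4.21-fold (adjusted p = 2.23e-08 in edgeR). FGFRL1, a receptor without a kinase domain, was at 31.6 ± 6.18 CPM in WT, 24.8 ± 2.77 CPM in 1-1 KO and 35.9 ± 6.18 CPM in 1-2 KO (SD, n = 3 libraries). The call of FGFRL1 in 1-1 KO (adjusted p = 0.0385 in edgeR) was lost with DESeq2 (adjusted p = 0.111) and without WT replicate 3 (adjusted p = 0.237 in edgeR), whereas FGFRL1 was called in 1-2 KO without WT replicate 3 (adjusted p = 0.0420 in edgeR) and after subtraction of the median of its neighbours (adjusted p = 0.00313).

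Of 14 genes of the adaptors that carry the signal from the receptor, each tested, 4 were higher and 6 lower in 1-1 KO, and the numbers in 1-2 KO were also 4 and 6. This is 71.4% called in each knockout, near the 63.4% of all tested genes in 1-1 KO and above the 54.4% in 1-2 KO. SHC1, an adaptor that links receptor kinases to RAS, dropped from 235 ± 2.83 CPM in WT to 97.9 ± 1.78 CPM in 1-1 KO (SD, n = 3 libraries), a 2.40-fold decrease (log2 fold change -1.26, adjusted p = 1.69e-12 in edgeR), of which -0.63 on the log2 scale remained after subtraction of the median of its neighbours. In 1-2 KO its log2 fold change was -0.16 (adjusted p = 9.17e-04 in edgeR) and 0.0092 after this subtraction. FRS2, the docking protein of FGF receptors, rose 1.26-fold in 1-1 KO (adjusted p = 3.10e-06 in edgeR). In 1-2 KO its log2 fold change was -0.29 (adjusted p = 2.48e-05 in edgeR), a call that was lost after the same subtraction (adjusted p = 0.316). PTPN11, the phosphatase SHP2 that binds FRS2, fell 1.33-fold in 1-2 KO (adjusted p = 7.47e-08 in edgeR). SHB, another adaptor, had a log2 fold change of -0.57 in 1-1 KO (adjusted p = 1.74e-06 in edgeR) and of -0.37 after the subtraction. CBL, a ubiquitin ligase that removes active receptors, rose 1.29-fold in 1-2 KO (adjusted p = 2.69e-06 in edgeR).

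Genes of heparan sulfate proteoglycans and other FGF-binding proteins were more often higher than lower. Of 27 such genes 24 were tested, with 12 higher and 6 lower in 1-1 KO and 16 higher and 2 lower in 1-2 KO than in WT. Of all tested genes 32.5% were higher and 30.9% lower in 1-1 KO, and 28.2% and 26.2% in 1-2 KO. The list had 75% called in each knockout. FLRT1 and SULF2, called higher in both knockouts, had at most 3 and 11 counts per WT library and passed the filter through knockout libraries. The list had a median log2 fold change of 0.25 in 1-1 KO, beside 0.01 over all tested genes, and of 0.50 in 1-2 KO, beside 0.02. GPC4, a glypican, was at 0.836 ± 0.161 CPM in WT, 15.5 ± 0.227 CPM in 1-1 KO and 7.61 ± 0.415 CPM in 1-2 KO (SD, n = 3 libraries). Its increase was 18.3-fold in 1-1 KO (adjusted p = 1.18e-12 in edgeR) and 8.98-fold in 1-2 KO (adjusted p = 3.46e-11 in edgeR). GPC5, another glypican, was at 1.17 ± 0.219 CPM in WT, 0.933 ± 0.0462 CPM in 1-1 KO and 6.02 ± 0.483 CPM in 1-2 KO (SD, n = 3 libraries), with an adjusted p of 3.02e-09 in 1-2 KO in edgeR. FLRT2, whose family binds FGF receptors, rose 3.79-fold in 1-1 KO (adjusted p = 1.61e-11 in edgeR), and its increase in 1-2 KO was 3.37-fold (adjusted p = 4.76e-11 in edgeR).

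Transcripts that commonly follow FGF receptor and ERK activity were more often lower than higher in 1-2 KO compared to 1-1 KO. Of 18 such genes 17 were tested. Compared to WT, 10 were higher and 1 lower in 1-1 KO, and 5 were higher and 4 lower in 1-2 KO. The list had 64.7% called in 1-1 KO, beside 63.4% of all tested genes, and 52.9% in 1-2 KO, beside 54.4%. Higher calls made up 32.5% of all tested genes in 1-1 KO and 28.2% in 1-2 KO, and lower calls 30.9% and 26.2%. Between the knockouts, 12 of the 17 were lower in 1-2 KO and 1 was higher. This is 76.5% called, beside 65.3% of all tested genes, where 32.2% were lower and 33.1% higher. The list had a median log2 fold change of -0.58 between the knockouts, beside 0.01 over all tested genes. DUSP6, an ERK phosphatase and a common readout of FGF signalling, was at 112 ± 3.42 CPM in WT, 112 ± 2.14 CPM in 1-1 KO and 64.0 ± 1.68 CPM in 1-2 KO (SD, n = 3 libraries). Its decrease in 1-2 KO was 1.75-fold (adjusted p = 3.03e-10 in edgeR), and in 1-1 KO its log2 fold change was 0.01 (adjusted p = 0.860 in edgeR) and -0.10 after subtraction of the median of its neighbours (adjusted p = 0.0269). DUSP4, a related phosphatase, rose 2.00-fold in 1-1 KO (adjusted p = 8.42e-09 in edgeR), whereas 1-2 KO showed a 1.36-fold decrease (adjusted p = 5.94e-05 in edgeR). ETV1, an ETS factor, rose 5.08-fold in 1-1 KO (adjusted p = 9.01e-13 in edgeR), and the increase in 1-2 KO was 2.62-fold (adjusted p = 1.98e-10 in edgeR). Its relative ETV5 rose 1.33-fold in 1-1 KO (adjusted p = 1.10e-06 in edgeR). PHLDA1 fell 1.80-fold in 1-2 KO (adjusted p = 6.98e-08 in edgeR). SPRY4, a feedback inhibitor, had a log2 fold change of -0.03 in 1-1 KO (adjusted p = 0.688 in edgeR) and of -0.14 in 1-2 KO (adjusted p = 0.0611 in edgeR). In 1-2 KO SPRY4 was called with DESeq2's size factors (adjusted p = 0.0446), without replicate 3 of that line (adjusted p = 0.0286) and, at -0.53 on the log2 scale, after subtraction of the median of its neighbours (adjusted p = 3.56e-06), all in edgeR. CCND1, the cyclin D1 gene in the same band of chromosome 11 as FGF19, rose 1.70-fold in 1-1 KO (adjusted p = 2.13e-08 in edgeR), a line in which FGF19 was not called. In 1-2 KO the log2 fold change of CCND1 was 0.19 (adjusted p = 0.00909 in edgeR), a call that was lost after subtraction of the median of its neighbours (adjusted p = 0.168).

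The bile acid genes that FGF19 controls in hepatocytes were partly silent. CYP7A1, the rate-limiting enzyme of bile acid synthesis, and CYP8B1, which sets the bile acid composition, had at most 2 counts in any library, and neither was tested. Of 16 genes of bile acid synthesis and its control 13 were tested. Compared to WT, 8 were higher and 2 lower in 1-1 KO, and 5 were higher and 5 lower in 1-2 KO. This is 76.9% called in each knockout, beside 63.4% of all tested genes in 1-1 KO and 54.4% in 1-2 KO. Higher calls made up 32.5% of all tested genes in 1-1 KO and 28.2% in 1-2 KO, and lower calls 30.9% and 26.2%. NR1H4, the bile acid receptor FXR that induces FGF19, was at 62.8 ± 2.75 CPM in WT, 42.4 ± 0.440 CPM in 1-1 KO and 21.5 ± 0.751 CPM in 1-2 KO (SD, n = 3 libraries). The decrease was 1.48-fold in 1-1 KO (adjusted p = 6.28e-08 in edgeR) and 2.91-fold in 1-2 KO (adjusted p = 4.03e-12 in edgeR). The line with the least NR1H4 mRNA, 1-2 KO, had the most FGF19 mRNA, and a link between them was not tested. NR0B2, the repressor SHP that FXR induces, rose 1.31-fold in 1-1 KO (adjusted p = 2.18e-04 in edgeR). Its log2 fold change of -0.32 in 1-2 KO (adjusted p = 0.00182 in edgeR) was not called after subtraction of the median of its neighbours (adjusted p = 0.765). SLC51B, part of a bile acid exporter induced by FXR, rose 1.68-fold in 1-1 KO (adjusted p = 3.50e-05 in edgeR) and had a log2 fold change of -0.14 in 1-2 KO (adjusted p = 0.329 in edgeR). AKR1D1, a reductase of bile acid synthesis, rose 3.97-fold in 1-1 KO (adjusted p = 9.21e-11 in edgeR), and the increase in 1-2 KO was 5.08-fold (adjusted p = 1.82e-11 in edgeR). CYP7B1, of the alternative pathway, was at 0.383 ± 0.0401 CPM in WT and rose 13.5-fold in 1-2 KO (SD, n = 3 libraries, adjusted p = 4.78e-11 in edgeR). AMACR, a racemase of side chain shortening, rose 2.03-fold in 1-1 KO (adjusted p = 0.00139 in edgeR). In 1-2 KO its log2 fold change was 0.38 (adjusted p = 0.196 in edgeR) and 1.12 after subtraction of the median of its neighbours (adjusted p = 0.00117).

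Of 18 genes that induce FGF21 or are induced with it, each was tested. Compared to WT, 9 were higher and 5 lower in 1-1 KO, and 9 were higher and 4 lower in 1-2 KO. The list had 77.8% called in 1-1 KO, beside 63.4% of all tested genes, and 72.2% in 1-2 KO, beside 54.4%. Higher calls made up 32.5% of all tested genes in 1-1 KO and 28.2% in 1-2 KO, and lower calls 30.9% and 26.2%. PPARA, the fasting receptor, rose 1.52-fold in 1-1 KO (adjusted p = 2.97e-06 in edgeR), and in 1-2 KO its log2 fold change was 0.42 (adjusted p = 1.60e-04 in edgeR) and 0.27 after subtraction of the median of its neighbours. ATF4, the stress factor, fell 1.18-fold in 1-1 KO (adjusted p = 1.63e-04 in edgeR), whereas 1-2 KO showed a 1.23-fold increase (adjusted p = 2.51e-05 in edgeR). TRIB3, a target of ATF4, had a log2 fold change of -0.65 in 1-1 KO (adjusted p = 6.73e-07 in edgeR), of which -0.33 remained after the subtraction, whereas its increase in 1-2 KO was 1.46-fold (adjusted p = 3.52e-06 in edgeR). CHAC1, another ATF4 target, reached 18.5 ± 0.345 CPM in 1-2 KO (SD, n = 3 libraries), 4.89-fold above WT (adjusted p = 3.90e-11 in edgeR). ASNS, asparagine synthetase, reached 1.97 ± 0.105 CPM in 1-2 KO (SD, n = 3 libraries), 3.19-fold above WT (adjusted p = 6.75e-07 in edgeR). ANGPTL4, a target of PPARA, had a log2 fold change of 1.30 in 1-1 KO (adjusted p = 1.17e-06 in edgeR), of which 0.68 remained after the subtraction. In 1-2 KO its log2 fold change was -0.15 (adjusted p = 0.417 in edgeR) and -0.39 after the subtraction (adjusted p = 0.0422).

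The genes with the pattern most like each of the 6 tested genes were taken by the smallest Euclidean distance between centred log2 CPM values over the 9 libraries, among 11977 protein-coding genes averaging 1 CPM or more. Among these was SLC25A1 for FGFR4, at a distance of 0.157, and for FGF19 they were KIFC3 and CSNK1A1, at 0.176 and 0.182. For KLB they were GID8 and DYRK1A, at 0.0785 and 0.0942, for FGFR1 PPP1R13B and ZBED6, at 0.134 and 0.137, and for FGFR3 GATA4 and SAFB, at 0.0957 and 0.113. For FGFR2 the closest genes were EPHA7 and ADAM19, at 1.39 and 1.98, on a distance that grows with the size of a change. Compared to WT, their fitted log2 fold changes were 9.24 and 8.24 in 1-2 KO and -0.16 and -0.40 in 1-1 KO. EPHA7 and ADAM19 were chosen by their likeness to FGFR2 over these same libraries. Their rise in 1-2 KO thus follows from the choice and is not a separate result.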

How the data were processed

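Total RNA of 9 Huh-7 samples was sequenced after a stranded mRNA library preparation. Reads were aligned to hg38 by the authors using STAR, per the labels and the study's methods, and were assigned to genes using featureCounts. The authors deposited the resulting raw read counts, which are not normalized. Tool versions, the strand setting and the treatment of reads with several matches are not given in the sources used here. The study names its annotation release, which was not used here. Gene positions, symbols and exon lengths came from GENCODE 44 on GRCh38, in which 60463 of 60664 identifiers were found; the other 201 held 0.0192% of the counts. Tools were edgeR 4.0.16 and DESeq2 1.42.0 under R 4.3.3, and Python 3.11.15. Counts were filtered with filterByExpr (minimum count 10, minimum total 15), TMM-normalized and fitted with edgeR's quasi-likelihood model, with all 9 libraries in 1 fit and 1 term per line. The biological coefficient of variation was 5.55%. The standard error of a log2 fold change (SE) was taken from the F statistic. P-values after subtraction of the median of the neighbours used this SE. The median was taken as a fixed value there, and the spread of the neighbours was left out. Lines with at most 3 counts in every library were taken to be at the floor, and folds against them use 3 counts in the shallowest library of that line. Counts of libraries of a line varied by 2.07 to 16.1 times the Poisson variance, so that no pair of libraries agreed within sampling noise. Alternatives were DESeq2's Wald test, other size factors, other filters, a fit of the 2 lines compared, a replicate block, an adjusted p under 0.01, subtraction of the median of 50 neighbouring genes, and leaving out each library. The steps were tested on simulated data. The 7 genes, the lists and the alternatives were chosen with earlier results of these data known. Named genes are the 7, 16 set by name, per list and knockout the 2 called genes with the largest change at a mean of at least 1 CPM, and the 2 most similar genes in pattern. Of these, 2 genes are not reported here.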

Additional observations from a re-analysis of the deposited data

Results flagged for a closer look

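The effects of the knockouts on FGFR4 went in opposite directions, each past the threshold, and the test of the difference itself gave a log2 difference of 0.94 between 1-2 KO and 1-1 KO (SE 0.07, adjusted p = 3.08e-08 in edgeR's quasi-likelihood test). The 3 libraries of each knockout lay on opposite sides of the 3 WT libraries. After subtraction of the median of the 50 neighbouring genes the difference was 0.41 (adjusted p = 1.68e-04 in edgeR, with the median taken as a fixed value). The part of the chromosomal region in the difference was not tested beyond this subtraction.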

How the results depend on the processing

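FGFR1, FGFR4, KLB and FGF19 kept their side of the threshold in each comparison under every alternative that was run, and their called changes kept their direction. FGFR3 in 1-2 KO compared to 1-1 KO was not called at an adjusted p under 0.01. Requiring at least 10 counts in every library removed FGFR2, and the genes with a change over 1 on the log2 scale went from 1 to 0 in 1-2 KO compared to WT and to 1-1 KO (edgeR). In 1-1 KO compared to WT this number was 0, and between 0 and 1 with each library left out, since FGFR2 was past the threshold without replicate 1 or 2 of 1-1 KO. That call rests on 4 counts in 1 library, in a gene that passed the filter through 1-2 KO, and is not read as a difference. With the length of the longest transcript, FGFR1 held 4.32% of the receptor level in WT, 6.75% in 1-1 KO and 5.01% in 1-2 KO, FGFR3 30.4%, 37.2% and 26.3%, FGFR4 65.3%, 56.1% and 67.9%, and FGFR2 0.842% in 1-2 KO. In the list of FGF23, KL, LCTL, GLB1L and FGFRL1, 3 genes were called in 1-1 KO, and 1 with DESeq2, with library size alone, with 10 counts in every library, with the replicate block, with an adjusted p under 0.01 or with the neighbours' median subtracted, and between 1 and 3 with each library left out. In 1-2 KO that list had 3 calls, and 1 with DESeq2 or an adjusted p under 0.01, and between 1 and 4 with each library left out. The paracrine list had 2 calls in 1-2 KO, 0 with 10 counts in every library, 1 with only the 2 lines compared, an adjusted p under 0.01 or the neighbours' median subtracted, and between 1 and 2 with each library left out. The adaptor list had 10 calls in 1-2 KO and 6 with the neighbours' median subtracted. That subtraction also turned DUSP6 in 1-1 KO to -0.10 (adjusted p = 0.0269), SHC1 in 1-2 KO to 0.0092, and FLRT2 and AMACR between the knockouts to 0.0674 and 0.0657. The cause of these changes was not tested. Replicate numbers did not pair the libraries, since the deviations of same-numbered libraries correlated between -0.187 and 0.0474. The replicate block left the FGFR4 difference between the knockouts at 0.94 and changed no call of the 6 tested genes. Depth limits FGF21, and FGFR2 in WT and 1-1 KO.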
